A study of Homo sapiens with 8 samples.

Results

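The comparison described here is the first step of a silencing time course in SW480, an established line of human colorectal cancer cells. It sets 2 libraries of cells given a small interfering RNA (siRNA) against TCF7L2 for 24 h beside 2 libraries of cells given a negative control siRNA and labelled 0 h. These are 4 of the 8 libraries of the series; the other 4 are TCF7L2 siRNA at 48 h and 72 h, 2 each, and are used here to estimate the spread and to follow the genes onward. The siRNAs were delivered with a lipid reagent, cells grew in RPMI medium with serum, and total RNA was sequenced after removal of ribosomal RNA. All groups come from 1 cell line, and the labels do not state whether 2 libraries of a group were separate cultures, so p-values measure the spread between libraries, which may be technical. No control siRNA library is labelled 24 h, so the effect of TCF7L2 siRNA and the effect of 24 h since transfection cannot be told apart. Levels are TPM as deposited, each gene's share of a library's transcripts after correction for length. Of 18656 genes listed, 11894 were tested, those that reached a TPM of 1 in 2 libraries or more.

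TCF7L2 encodes a DNA-binding factor of the TCF/LEF family. In Wnt signalling, beta-catenin that escapes degradation enters the nucleus and binds TCF/LEF factors, which turns on target genes such as AXIN2, MYC, NOTUM and ASCL2. In colorectal cancer cells with a damaged APC gene, SW480 among them, beta-catenin accumulates without a Wnt ligand, and the pathway keeps cells proliferating and in a state like that of the intestinal crypt.

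In each of the 8 libraries, between 11358 and 11717 genes reached a TPM of 1. Read depth is unknown, because TPM keeps none. The listed genes summed to between 448107.5 and 485601.5 TPM in 7 libraries and to 352455.7 in the second 72 h library. Each library was therefore scaled by the median of its gene-wise ratios to an average profile (factors of 0.982 to 1.06 in the 4 compared libraries). Log2 changes are differences of log2(scaled TPM + 1) with the standard error (SE) of a limma model over all 8 libraries, and adjusted p comes from limma (Benjamini-Hochberg, over the 11894 genes). A gene is called when its adjusted p is under 0.05. Markers of the labelled cell type were present. All 16 colorectal epithelial markers reached a TPM of 1, with a summed level of 3423 to 3455 TPM at 0 h and 3463 to 3475 TPM at 24 h. Of 8 endothelial markers none reached 1 TPM (sums of 0.28 to 0.42), and 2 of 12 immune markers did (sums of 5.22 to 7.15 in the 4 libraries). Of 10 fibroblast markers 6 reached it in some library (sums of 9.39 to 13.41 in these 4), as did 3 of 7 neuronal and neuroendocrine markers (sums of 74.49 to 83).

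The targeted gene did not pass the test at 24 h. TCF7L2 (GRCh38 chromosome 10, 112950250 to 113167678, plus strand) stood at 6.86 and 7.47 TPM with control siRNA and at 5.82 and 5.05 TPM after 24 h of siRNA. Both 24 h libraries lay below both controls, but the log2 change of -0.26 ± 0.11 did not pass (adjusted p = 0.288). The level was 4.92 and 4.07 TPM at 48 h and 4.07 and 3.53 TPM at 72 h, so the 24 h libraries lay between the control and the later ones. The other TCF/LEF members did not pass either. LEF1, the member that most often acts as an activator with beta-catenin, had 20.09 and 14.69 TPM at 0 h and 19.41 and 17.27 TPM at 24 h, which overlap (log2 change 0.18 ± 0.13, adjusted p = 0.561, and -0.04 without the second control library). TCF7 changed by -0.08 ± 0.13 (adjusted p = 0.830), and TCF7L1 stayed under 1 TPM in all libraries and was not tested. CTNNB1, which encodes beta-catenin itself, had 529.72 and 543.54 TPM at 0 h and 495.58 and 504.57 TPM at 24 h (log2 change -0.00 ± 0.04, adjusted p = 0.974). Of the 16 TCF/LEF factors and beta-catenin cofactors kept, 0 were called by limma, with 1 higher and 3 lower at an unadjusted p under 0.05. Over all genes tested, 9.02% were higher (1073) and 7.47% lower (888) at that unadjusted p, and each list below is to be read against these shares. CTBP1, a corepressor, changed by 0.18 ± 0.05 (adjusted p = 0.147).

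Across the 11894 genes, 129 were called at 24 h, or 1.08%. Of these, 77 rose (0.647% of genes tested) and 52 fell (0.437%). All 77 had both 24 h libraries above both controls, and all 52 had both below. Groups that lie apart therefore come with every call below and are no further support. Over all genes tested, 24.9% had both 24 h libraries above both controls and 24.9% had both below. Counts of list members above or below in both libraries are to be read against these shares. In bulk RNA, more cells of a kind and more RNA per cell cannot be told apart. The changes were small. Their size ran from 0.21 to 1.21 on the log2 scale with a median of 0.39, and 24 genes changed by 1.5-fold or more and 2 genes by 2-fold or more. With TPM as deposited and no scaling, limma called 55 genes (0.462%), 25 higher and 30 lower, of which 25 were also called after scaling, all in the same direction. In that fit the whole distribution sat lower, with a median log2 change of -0.09 over all genes, and every gene received the spread of the trend, so that genes whose 2 libraries lay far apart were called. PLCB1, a phospholipase called only there and picked for its wide gap, had 25.48 and 6.02 TPM in the 24 h libraries. The split by direction depended on scaling. Higher genes made up 59.7% of the calls after median-ratio scaling, 49.1% after quantile normalization, 45.5% as deposited and 33.5% with each library set to the same sum. The count also changed with the libraries that entered the fit. Leaving out a compared library sets a group of 1 against 2, and the median SE rose from 0.0913 to between 0.113 and 0.114. Fewer calls come with any such fit, so the calls lost there do not show that a single library carried them. Without 1 of the 4 compared libraries limma called 4 to 14 genes, without 1 of the 48 h libraries 41, and without 1 of the 72 h libraries 292 or 296. Of the 15 largest rises and 15 largest falls, DSC2 and SLC2A3 were called without each of the 4 compared libraries in turn. Every other gene among those 30 lost its call without at least 1 of them, at adjusted p up to 0.247, and kept its direction.

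**Figure D1:**
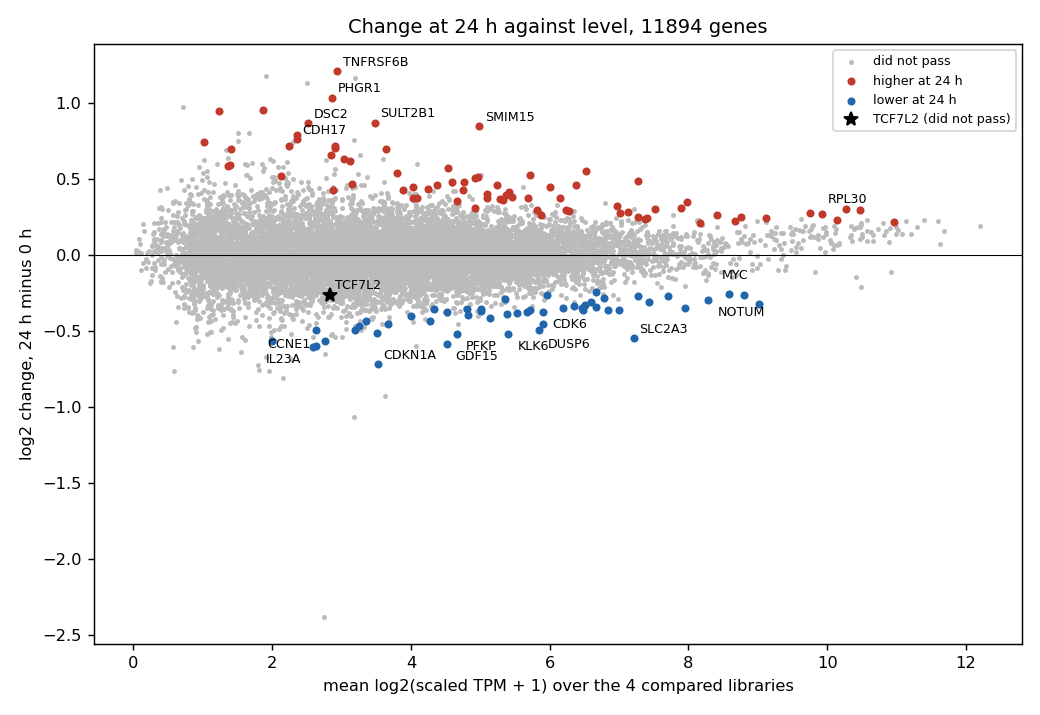
Log2 change at 24 h against mean log2 level (both axes log2, scaled TPM + 1) for 11894 genes, with the 77 higher genes in red and the 52 lower genes in blue. TCF7L2, the star, lies below 0 but inside the grey cloud of genes that did not pass, and called genes at high levels have small changes.

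Of 48 kept Wnt target genes, 3 fell and 0 rose, where 0.437% of all genes tested fell and 0.647% rose. At an unadjusted p under 0.05, 8 were lower and 2 higher, against 7.47% and 9.02% of all genes. These counts depend on the choice of list. DKK4, a secreted Wnt antagonist outside the list, was called higher by limma (log2 change 0.53 ± 0.08, adjusted p = 0.0217). NOTUM, a secreted enzyme that inactivates Wnt ligands, had 369.27 and 360.81 TPM at 0 h and 284.6 and 272.16 TPM at 24 h. The groups did not overlap, and the log2 change was -0.29 ± 0.04 (adjusted p = 0.0155). NKD1, an inhibitor of Dishevelled, went from 179.51 and 176.56 TPM to 141.53 and 134.99 TPM (log2 change -0.27 ± 0.04, adjusted p = 0.0280). MYC, the growth-promoting transcription factor, went from 441.64 and 440.35 TPM to 350.97 and 340.28 TPM (log2 change -0.25 ± 0.04, adjusted p = 0.0310). In each of the 3 the groups did not overlap. Other targets did not pass. CCND1, which encodes cyclin D1, had 147.98 and 147.31 TPM at 0 h and 120.58 and 105.72 TPM at 24 h, without overlap, at an adjusted p of 0.0545 (log2 change -0.29 ± 0.06). AXIN2, the feedback scaffold of the pathway, had 219.42 and 213.27 TPM and then 197.48 and 201.6 TPM, a log2 change of -0.02 ± 0.05 after scaling (adjusted p = 0.883). ASCL2, a crypt stem cell factor, changed by -0.05 ± 0.06 (adjusted p = 0.764). LGR5, a stem cell receptor, was near 1 TPM throughout (log2 change 0.05 ± 0.15). Of the Wnt targets, 22 had both 24 h libraries below both control libraries and 5 had both above, and the list's median log2 change was -0.05. Over all genes those shares were 24.9% below and 24.9% above, with a median of -0.00. The intestinal stem cell list, with 18 kept genes, held 0 calls by limma (1 lower and 0 higher at an unadjusted p under 0.05, no more than the shares over all genes) and a median of -0.01.

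The largest fall was that of CDKN1A, which encodes p21, an inhibitor of cyclin-dependent kinases and a textbook p53 target. It had 14.13 and 14.94 TPM at 0 h and 7.98 and 7.77 TPM at 24 h, and both 24 h libraries were far below both controls. The log2 change was -0.72 ± 0.07 (adjusted p = 0.00453), and the level was back at 14.62 and 15.03 TPM at 48 h. The gene (GRCh38 chromosome 6, 36676460 to 36687339) overlaps an antisense transcript, DINOL, and whether the counting used strand is not stated in the labels. GDF15, a secreted stress cytokine that p53 and ATF4 both activate, had 28.97 and 28.13 TPM at 0 h and 17.17 and 17.72 TPM at 24 h (log2 change -0.59 ± 0.11, adjusted p = 0.0397). GDF15 went on down, to 13.7 and 14.48 TPM at 48 h and 4.37 and 2.51 TPM at 72 h. These were the 2 called genes among 29 kept p53 targets, where 0.437% of all genes tested fell. At an unadjusted p under 0.05, 8 were lower and 2 higher (7.47% and 9.02% of all genes). The list's median was -0.09, and 13 members lay below and 7 above in both libraries, where 24.9% of all genes lay each way. TNFRSF10B, a death receptor, did not pass (log2 change -0.26 ± 0.06, adjusted p = 0.0649). Among 8 kept inhibitors of cyclin-dependent kinases CDKN1A alone was called. CDKN3, a phosphatase of the same list, changed by 0.27 ± 0.06 (adjusted p = 0.0723) and CDKN2B by -0.25 ± 0.09 (adjusted p = 0.215).

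Some genes of growth factor signalling also fell. DUSP6, the phosphatase that switches off ERK, had 73.64 and 68.41 TPM at 0 h and 47.73 and 46.05 TPM at 24 h (log2 change -0.49 ± 0.06, adjusted p = 0.00939). It stood at 73.9 and 71.52 TPM at 48 h, near the controls. EREG, which encodes the EGF receptor ligand epiregulin, had 37.26 and 38.36 TPM and then 26.53 and 27.95 TPM (log2 change -0.36 ± 0.06, adjusted p = 0.0217). AREG, the related ligand amphiregulin, had 139.63 and 134.37 TPM and then 97.46 and 101.47 TPM (log2 change -0.36 ± 0.05, adjusted p = 0.0204); hg19 holds a near-identical copy of AREG, so its level is uncertain. EPHA2, a receptor tyrosine kinase, went from 97.86 and 94.52 TPM to 72.54 and 69.57 TPM (log2 change -0.34 ± 0.05, adjusted p = 0.0286). These 4 were the called members of 22 kept genes of RAS-MAPK feedback. None rose, 2 were higher and 8 lower at an unadjusted p under 0.05 (9.02% and 7.47% of all genes), and the list's median was -0.08. Among 26 kept AP-1 and immediate early genes, which respond within minutes to growth factors and stress, 1 fell. IER3 had 107.12 and 105.88 TPM at 0 h and 78.61 and 75.69 TPM at 24 h (log2 change -0.36 ± 0.05, adjusted p = 0.0154). In this list 17 members lay below the controls in both libraries and 2 above, where 24.9% of all genes lay each way, and its median was -0.21. Of its 26 genes, 10 were lower and 1 higher at an unadjusted p under 0.05. The transcription factors KLF10 (log2 change -0.27 ± 0.07, adjusted p = 0.0883) and MAFF (-0.41 ± 0.09, adjusted p = 0.0595) did not pass.

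IL23A, the p19 subunit of the cytokine interleukin-23, had 6.83 and 7.21 TPM at 0 h and 3.99 and 3.99 TPM at 24 h. Both 24 h libraries were below both controls (log2 change -0.60 ± 0.09, adjusted p = 0.0190), while at 48 h the level was 7.5 and 6.95 TPM. In the list of NF-kB targets and chemokines, with 26 kept genes, IL23A and TNFRSF12A, the TWEAK receptor, fell. At an unadjusted p under 0.05, 5 of the 26 were lower and 2 higher (7.47% and 9.02% of all genes). In both libraries 8 lay below the controls and 4 above, where 24.9% of all genes lay each way. TNFRSF12A had 122.27 and 116.72 TPM and then 89.71 and 86.28 TPM (log2 change -0.34 ± 0.06, adjusted p = 0.0294). TNFRSF6B, a soluble decoy receptor for Fas ligand, rose in the same list and had the largest increase of all called genes. It had 3.12 and 5.75 TPM at 0 h and 11.03 and 10.1 TPM at 24 h (log2 change 1.21 ± 0.18, adjusted p = 0.0177). Its control libraries differed widely. Both lay below both 24 h libraries, which comes with every call. TNFRSF6B (GRCh38 chromosome 20, 63696651 to 63698684) shares exons with the read-through transcript RTEL1-TNFRSF6B and overlaps ARFRP1 on the other strand, so its level is uncertain. Of 25 kept type I interferon response genes, 0 were called by limma, with a median of -0.01. At an unadjusted p under 0.05, 2 were higher and 0 lower, no more than the shares over all genes (9.02% and 7.47%). IFITM2, an antiviral membrane protein, changed by 0.19 ± 0.08 (adjusted p = 0.259) and ISG20, a nuclease, by 0.17 ± 0.06 (adjusted p = 0.201).

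**Figure D2:**
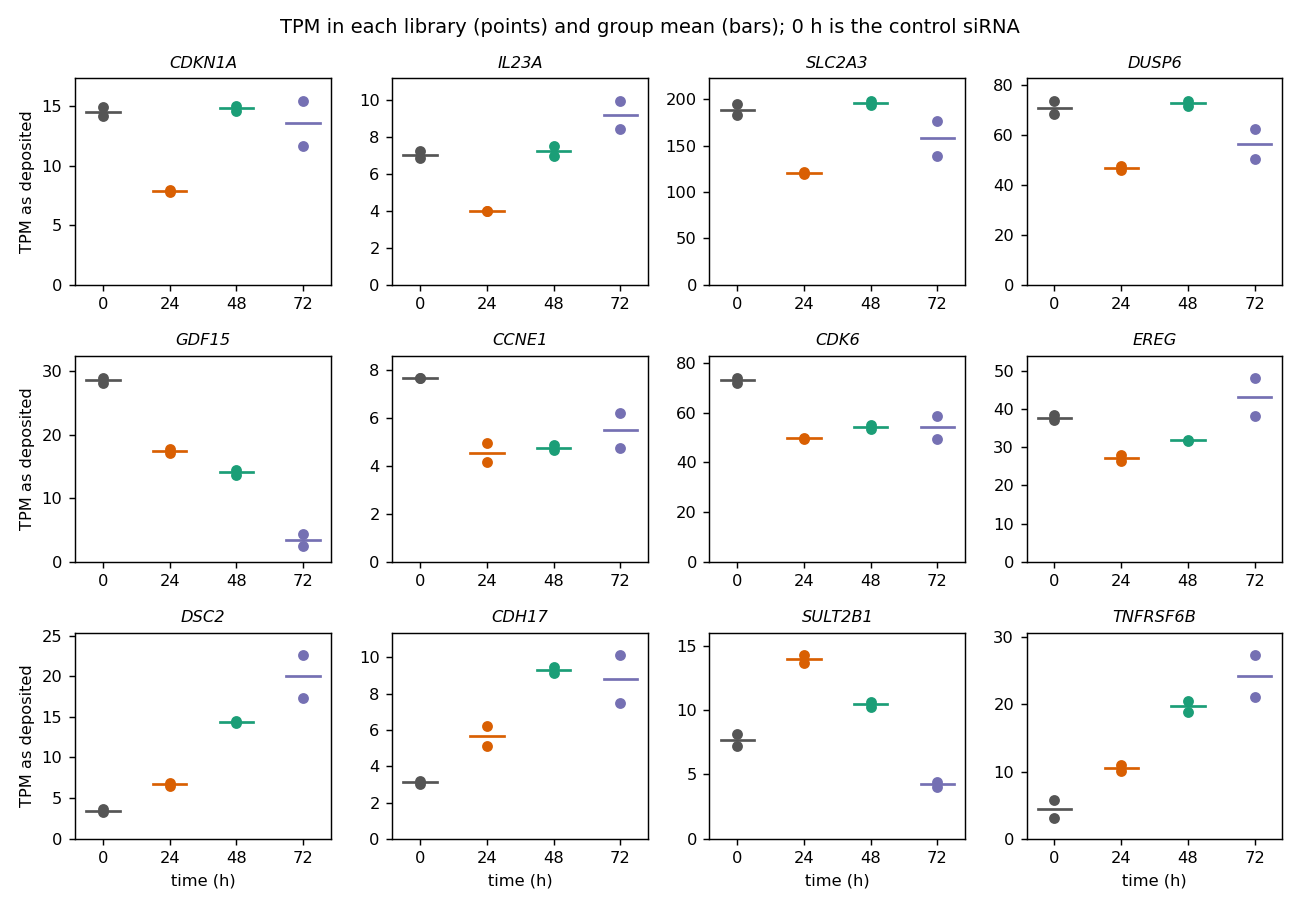
TPM as deposited (y axes, from 0) in each library against time (x axis, h) for 12 called genes, 2 points and a mean bar per time. CDKN1A, IL23A, SLC2A3 and DUSP6 were lower at 24 h than at 0 h and close to the control level at 48 h, GDF15 kept going down, and DSC2 and TNFRSF6B kept going up.

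In the glycolysis and hypoxia-responsive list, a glucose transporter and a phosphofructokinase were called lower. SLC2A3, the glucose transporter GLUT3, had 183.21 and 194.55 TPM at 0 h and 119.68 and 121.59 TPM at 24 h. The 24 h libraries lay below the controls with little spread (log2 change -0.55 ± 0.04, adjusted p = 0.00420), and at 48 h the level was 193.88 and 198.66 TPM. SLC2A14 is a near-identical copy of SLC2A3, so reads may have been divided between them. PFKP, a phosphofructokinase, had 31.04 and 30.99 TPM and then 20.77 and 19.08 TPM (log2 change -0.52 ± 0.09, adjusted p = 0.0397). They were the called members of 36 kept glycolysis and hypoxia-responsive genes. At an unadjusted p under 0.05, 5 of the 36 were lower and 3 higher, against 7.47% and 9.02% of all genes. The list had 14 members above and 10 below in both libraries, where 24.9% of all genes lay each way. Its median was 0.03 after median-ratio scaling, -0.01 after quantile normalization, -0.02 with equal sums and -0.07 as deposited.

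The remaining genes among the 15 largest falls were METRNL, a secreted meteorin-like factor, CCNE1, KLK6, ATL3, HIVEP2, VPS13C, BTG3, CDK6 and SLC16A5. METRNL had 6.48 and 7.15 TPM at 0 h and 3.89 and 3.82 TPM at 24 h (log2 change -0.60 ± 0.09, adjusted p = 0.0204). KLK6, a secreted serine protease, went from 53.52 and 51.44 TPM to 33.89 and 34.1 TPM (log2 change -0.52 ± 0.06, adjusted p = 0.00763). Both groups were tight and apart for each of these genes. ATL3, an atlastin of the endoplasmic reticulum, changed by -0.51 ± 0.09 and VPS13C, a lipid transfer protein, by -0.49 ± 0.09. HIVEP2, a zinc finger factor, changed by -0.49 ± 0.10, BTG3, an antiproliferative protein, by -0.47 ± 0.08, and SLC16A5, a monocarboxylate transporter family member, by -0.45 ± 0.08. Their adjusted p values ran from 0.0313 to 0.0491. In the annotation PFKP, COX6B2, RRM2, AXIN2, CCND2, COX6A1 and RHOC, among other genes, share exon sequence with another transcript on their strand. TCF7L2, DUSP6, KLK6, ATL3, HIVEP2, VPS13C, NKD1, MCM7, SMIM15, MME, KCNIP4 and MYOM1 do so with 1 on the opposite strand. So do IER3, TNFRSF12A, TEAD2, DICER1, PLAU, YES1, NDUFB9, RPL30, RPS6, CCND1, LEF1, FLNA and ACTN4, and others not listed here. The levels of all these genes are uncertain to that extent.

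Cell cycle genes were read by phase. Of 24 kept G1 cyclins, CDKs, RB and E2F factors, 4 fell and 0 rose (9 lower and 1 higher at an unadjusted p under 0.05, against 7.47% and 9.02% of all genes), and 16 lay below the controls in both libraries against 3 above. CCNE1, which encodes cyclin E1, had 7.67 and 7.69 TPM at 0 h and 4.94 and 4.17 TPM at 24 h (log2 change -0.56 ± 0.09, adjusted p = 0.0298). CDK6, a kinase partner of D cyclins, went from 74.19 and 72.21 TPM to 49.89 and 49.55 TPM (log2 change -0.45 ± 0.05, adjusted p = 0.0117). E2F1, the factor that activates replication genes, went from 31.56 and 33.08 TPM to 23.76 and 23.08 TPM (log2 change -0.35 ± 0.06, adjusted p = 0.0280). CCND2, which encodes cyclin D2, went from 199.83 and 202.92 TPM to 153.2 and 151.13 TPM (log2 change -0.30 ± 0.04, adjusted p = 0.0146). In all 4 genes the groups were apart. CDC25A, a phosphatase of the G1 to S step, did not pass (log2 change -0.29 ± 0.07, adjusted p = 0.0945). The list's median was -0.18.

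In the list of S-phase DNA replication genes, all 55 were kept, 2 fell and 0 rose. RRM2, a subunit of ribonucleotide reductase, had 61.19 and 59.73 TPM at 0 h and 41.07 and 45.78 TPM at 24 h (log2 change -0.37 ± 0.07, adjusted p = 0.0439). MCM7, a subunit of the replicative helicase, went from 243.05 and 239.37 TPM to 190.93 and 182.72 TPM (log2 change -0.27 ± 0.04, adjusted p = 0.0272). The remaining members did not pass one by one but leaned the same way: 36 of the 55 lay below the controls in both libraries and 0 above, and 23 were lower and 0 higher at an unadjusted p under 0.05 (7.47% and 9.02% of all genes). Their median was -0.15, and -0.25 as deposited with 48 below, where 46.7% of all genes lay below and 10.8% above. MCM6 changed by -0.32 ± 0.06 (adjusted p = 0.0567) and MCM5 by -0.26 ± 0.06 (adjusted p = 0.0742). The 28 kept genes of nucleotide synthesis held 1 call, again RRM2, and had a median of -0.06. Of these 28, 7 were lower and 1 higher at an unadjusted p under 0.05.

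Mitotic genes leaned higher after scaling. Of 50 G2/M genes, 1 rose and 0 fell, with 15 higher and 1 lower at an unadjusted p under 0.05 (9.02% and 7.47% of all genes). CCNB1, which encodes cyclin B1, had 64.07 and 64.94 TPM at 0 h and 78.99 and 78.45 TPM at 24 h (log2 change 0.38 ± 0.06, adjusted p = 0.0205). CCNB2 (log2 change 0.32 ± 0.07, adjusted p = 0.0567), NEK2 (0.31 ± 0.07, adjusted p = 0.0694) and CDC20 (0.25 ± 0.06, adjusted p = 0.0723), a cyclin, a mitotic kinase and an activator of the anaphase-promoting complex, did not pass. In this list 29 members lay above the controls in both libraries and 3 below. The median of 0.10 was 0.11 after quantile normalization and 0.06 with equal sums, but as deposited it was 0.01, with 15 above and 12 below.

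Promoter windows of these lists were read for short motifs. RefSeq windows (GRCh38.p14) of 300 bases, 250 before to 50 after the gene start, were matched by symbol to 9631 of the genes tested, giving 14159 windows. The E2F-type motif TTTNNCGC, on either strand, was in 9.49% of all windows, in 44.1% of those of S-phase genes (26 of 59) and in 24% of those of G1 genes (6 of 25). It was in 8.93% of the windows of genes that fell and 4.17% of those of genes that rose, neither above the share over all windows. The shares of the S-phase and G1 lists are properties of those lists, not of the change at 24 h. A TCF/LEF-type motif (CTTTGAT or CTTTGAA) was in 4.22% of all windows, 11.9% of those of Wnt targets (5 of 42), 5.36% of those of genes that fell and 1.04% of those of genes that rose. A match is a description of letters, not a bound site. The windows of E2F1 (chr20:33686336-33686635, minus strand) and of MCM7 (chr7:100101348-100101647, minus strand, 1 of 3 MCM7 windows), 5' to 3' with E2F-type matches in capitals, are shown because both genes fell and both carry several matches.
E2F1: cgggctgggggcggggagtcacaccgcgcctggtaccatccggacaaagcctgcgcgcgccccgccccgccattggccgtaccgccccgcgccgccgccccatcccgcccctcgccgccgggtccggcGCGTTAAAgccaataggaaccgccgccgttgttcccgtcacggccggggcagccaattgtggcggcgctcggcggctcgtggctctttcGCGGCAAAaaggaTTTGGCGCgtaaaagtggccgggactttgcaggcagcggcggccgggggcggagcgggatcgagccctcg
MCM7: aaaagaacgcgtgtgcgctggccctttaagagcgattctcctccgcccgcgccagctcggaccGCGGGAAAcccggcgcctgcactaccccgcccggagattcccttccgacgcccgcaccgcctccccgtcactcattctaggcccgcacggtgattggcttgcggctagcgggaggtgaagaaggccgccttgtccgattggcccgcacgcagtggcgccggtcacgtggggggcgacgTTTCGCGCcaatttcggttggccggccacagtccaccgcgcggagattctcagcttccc
E2F1 has 3 matches and MCM7 has 2, on both strands of either window. The last match of each starts 20 bases (E2F1) and 9 bases (MCM7) before the gene start.

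Members of the amino acid response fell too. ATF4 is the factor that the integrated stress response uses to raise amino acid transport and synthesis. Of 36 kept ATF4 genes, 3 fell and 0 rose, 18 were lower and 0 higher at an unadjusted p under 0.05 (7.47% and 9.02% of all genes), and 27 lay below the controls in both libraries with 0 above (median -0.12). CHAC1, which degrades glutathione, had 22.82 and 22.78 TPM at 0 h and 15.55 and 15.55 TPM at 24 h (log2 change -0.43 ± 0.06, adjusted p = 0.0200). CBS, an enzyme of cysteine synthesis, went from 125.24 and 130.34 TPM to 99.24 and 97.17 TPM (log2 change -0.28 ± 0.04, adjusted p = 0.0258). GDF15, described above, was the third. SLC7A1, a cationic amino acid transporter, did not pass (log2 change -0.33 ± 0.08, adjusted p = 0.0756). A CARE-type motif, TGATGCAA on either strand, was in 0.516% of all promoter windows and in 10.4% of those of ATF4 genes (5 of 48), and a CRE-type motif, TGACGTCA, was in 2.82% of all windows and 10.7% of those of RAS-MAPK genes (3 of 28). In windows of genes that fell the CARE-type share was 1.79% and the CRE-type share 5.36%. No window of a gene that rose held either. The windows of CHAC1 (chr15:40953221-40953520, plus strand) and AREG (chr4:74444886-74445185, plus strand) are shown with these matches in capitals, as called members of these lists that carry them.
CHAC1: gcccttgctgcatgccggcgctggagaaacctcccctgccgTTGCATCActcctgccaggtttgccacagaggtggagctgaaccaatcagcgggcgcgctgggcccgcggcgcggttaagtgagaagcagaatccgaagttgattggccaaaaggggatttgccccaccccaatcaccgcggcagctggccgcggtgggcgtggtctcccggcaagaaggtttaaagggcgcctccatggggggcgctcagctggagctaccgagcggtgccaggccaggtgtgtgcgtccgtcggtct
AREG: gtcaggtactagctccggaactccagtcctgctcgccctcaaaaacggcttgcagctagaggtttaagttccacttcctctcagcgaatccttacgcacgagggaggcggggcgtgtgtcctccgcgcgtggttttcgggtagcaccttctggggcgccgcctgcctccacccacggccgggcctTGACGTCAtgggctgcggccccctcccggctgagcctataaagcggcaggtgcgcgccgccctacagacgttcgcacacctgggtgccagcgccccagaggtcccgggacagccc
The CHAC1 match begins 209 bases and the AREG match 65 bases before the gene start. In the ER chaperone list, with 29 kept genes, CANX, the lectin chaperone calnexin, rose (342.06 and 317.63 TPM to 376.24 and 363.02 TPM, log2 change 0.26 ± 0.05, adjusted p = 0.0477). That list's median was 0.06, and -0.03 as deposited. Of its genes, 4 were higher and 2 lower at an unadjusted p under 0.05.

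Sterol and growth-regulatory pathways had medians below 0. Of 31 kept genes of cholesterol synthesis and sterol regulation, 20 lay below and 1 above the controls in both libraries (median -0.14). Over all genes, 24.9% lay each way. At an unadjusted p under 0.05, 10 of the 31 were lower and 1 higher (7.47% and 9.02% of all genes). INSIG1, a sterol sensor partner (log2 change -0.33 ± 0.07, adjusted p = 0.0672), and MSMO1, a sterol oxidase (-0.37 ± 0.09, adjusted p = 0.0904), did not pass. TEAD2, a DNA-binding partner of YAP, had 3.74 and 4.44 TPM and then 2.16 and 2.35 TPM (log2 change -0.57 ± 0.11, adjusted p = 0.0477). It was the call among 24 kept YAP/TAZ genes (median -0.13), of which 4 were lower and 0 higher at an unadjusted p under 0.05. AMOTL2, a YAP target and inhibitor, did not pass (log2 change -0.36 ± 0.08, adjusted p = 0.0730). In the BMP and TGF-beta list of 33 kept genes GDF15 was called, 11 genes were lower and 1 higher at an unadjusted p under 0.05 (7.47% and 9.02% of all genes), and ID2 (log2 change -0.60 ± 0.13, adjusted p = 0.0627) and ID1 (-0.26 ± 0.06, adjusted p = 0.0642), inhibitors of bHLH factors, did not pass. The 28 kept Notch genes held 0 calls by limma (5 lower and 2 higher at an unadjusted p under 0.05, against 7.47% and 9.02% of all genes, median -0.12). HES5, a Notch effector, changed by -0.34 ± 0.11 (adjusted p = 0.177).

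Rises included genes of the differentiated gut lining. Of 25 kept enterocyte genes, 2 rose and 0 fell, 9 were higher and 1 lower at an unadjusted p under 0.05 (9.02% and 7.47% of all genes), and 11 lay above the controls in both libraries against 5 below. The median of 0.15 stayed positive under every scaling tried (0.08 as deposited). PHGR1, a small histidine- and glycine-rich protein of the gut epithelium, had 4.8 and 3.86 TPM at 0 h and 10.02 and 8.66 TPM at 24 h (log2 change 1.04 ± 0.18, adjusted p = 0.0380). CDH17, the intestinal cadherin, had 3.04 and 3.17 TPM and then 6.21 and 5.09 TPM (log2 change 0.77 ± 0.10, adjusted p = 0.0145). For both genes the 24 h libraries lay well clear of the controls. CDHR2, a brush border protocadherin, had 5.41 and 4.15 TPM and then 8.57 and 6.36 TPM and did not pass (log2 change 0.63 ± 0.14, adjusted p = 0.0741). HNF4A, a master factor of enterocytes, did not pass either (0.29 ± 0.06, adjusted p = 0.0627). CDH17 and HNF4A are also among the epithelial markers.

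The 15 largest rises held several adhesion and surface molecules. DSC2, the desmosomal cadherin desmocollin 2, had 3.26 and 3.63 TPM at 0 h and 6.47 and 6.91 TPM at 24 h, and then 14.45 and 14.26 TPM at 48 h (log2 change at 24 h 0.87 ± 0.08, adjusted p = 0.00420). It was the call among 33 kept junction genes, whose median of 0.03 was -0.06 as deposited and -0.01 with equal sums. At an unadjusted p under 0.05, 7 of the 33 were higher and 3 lower (9.02% and 7.47% of all genes). ITGA3, an integrin chain that binds laminin, went from 9.98 and 8.66 TPM to 15.41 and 14.04 TPM (log2 change 0.70 ± 0.09, adjusted p = 0.0154). MME, the surface protease neprilysin, went from 4.98 and 5 TPM to 8.11 and 7.75 TPM (log2 change 0.66 ± 0.08, adjusted p = 0.0145). CD36, a fatty acid uptake receptor, went from 5.4 and 4.88 TPM to 8.94 and 8.18 TPM (log2 change 0.72 ± 0.09, adjusted p = 0.0111). In each of these the groups were apart. KRT5, a basal keratin, rose by a small step (284.46 and 280.54 TPM to 310.37 and 302.15 TPM, log2 change 0.21 ± 0.04, adjusted p = 0.0491) as the 1 call of 14 kept keratins. Of the 14, 4 were higher and 1 lower at an unadjusted p under 0.05 (9.02% and 7.47% of all genes). PLAU, the urokinase protease, was the call among 26 mesenchymal genes and stayed low (1.16 and 1.23 TPM to 2.22 and 2.16 TPM, log2 change 0.59 ± 0.10, adjusted p = 0.0313). Of those 26 genes, 4 were higher and 5 lower at an unadjusted p under 0.05.

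SULT2B1, a cholesterol sulfotransferase, had 8.13 and 7.24 TPM at 0 h and 14.3 and 13.63 TPM at 24 h (log2 change 0.87 ± 0.13, adjusted p = 0.0200). It was the 1 call of 23 kept sulfation and xenobiotic genes (median 0.01, and -0.05 as deposited). In that list 9 genes were higher and 0 lower at an unadjusted p under 0.05 (9.02% and 7.47% of all genes). In both libraries 11 lay above the controls and 4 below, where 24.9% of all genes lay each way. SMIM15, a small membrane protein, went from 25.47 and 22.42 TPM to 43.44 and 38.79 TPM (log2 change 0.85 ± 0.08, adjusted p = 0.00453). ITPKA, an inositol trisphosphate kinase, went from 4.94 and 5.41 TPM to 8.61 and 8.37 TPM (log2 change 0.70 ± 0.10, adjusted p = 0.0170). All 3, like every called gene, had groups that did not overlap. COX6B2, a testis-type subunit of cytochrome oxidase, changed by 0.79 ± 0.11, KCNIP4, a potassium channel partner, by 0.72 ± 0.10 and CAMK2N1, an inhibitor of CaM kinase II, by 0.63 ± 0.09. MYOM1, a sarcomere protein, changed by 0.62 ± 0.12 and DESI2, a peptidase, by 0.57 ± 0.08, and the adjusted p of these 5 ran from 0.0154 to 0.0491. MT4, a metallothionein, rose at a low level, from 1.89 and 1.56 TPM to 4.8 and 3.42 TPM (log2 change 0.96 ± 0.18, adjusted p = 0.0462), as the 1 call of 10 kept metal-response genes. DICER1, the nuclease that makes microRNAs, fell from 32.69 and 33.83 TPM to 23.1 and 23.85 TPM (log2 change -0.39 ± 0.07, adjusted p = 0.0366), as the 1 call of 17 kept small RNA genes. DGCR8, another gene of that list, did not pass (log2 change -0.26 ± 0.07, adjusted p = 0.123).

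Genes of protein synthesis moved by small amounts. All 79 cytosolic ribosomal protein genes of the list were kept, 4 rose and 0 fell, and 55 were higher and 0 lower at an unadjusted p under 0.05 (9.02% and 7.47% of all genes). Both 24 h libraries were above both controls in 74 and below in 0, with a median of 0.15. That median was 0.03 after quantile normalization, 0.10 with equal sums and 0.05 as deposited, where 42 lay above and 5 below. RPL12, a large-subunit protein, had 1411.46 and 1305.71 TPM at 0 h and 1584.43 and 1542 TPM at 24 h (log2 change 0.30 ± 0.05, adjusted p = 0.0397). RPL30 changed by 0.27 ± 0.04, RPS6 by 0.23 ± 0.04 and RPS2 by 0.22 ± 0.04, with adjusted p from 0.0213 to 0.0427. Ribosomal protein genes have many processed pseudogenes, so their levels are uncertain. The 55 genes of ribosome biogenesis, which assemble ribosomes, held 0 calls by limma (13 lower and 0 higher at an unadjusted p under 0.05, against 7.47% and 9.02% of all genes), and 27 lay below and 2 above (median -0.08). DDX21, a nucleolar helicase, changed by -0.26 ± 0.05 (adjusted p = 0.0567), and UTP20, a processome subunit, by -0.35 ± 0.08 (adjusted p = 0.0664). Nuclear genes of oxidative phosphorylation leaned higher after scaling. Of 61, NDUFB9, of complex I, and COX6A1, of complex IV, rose (log2 changes 0.28 ± 0.05 and 0.25 ± 0.04, adjusted p = 0.0491 and 0.0217), 36 lay above and 3 below, and the median of 0.10 was 0.00 as deposited with 16 above and 16 below. The 37 kept lysosomal genes held 0 calls by limma (3 lower and 1 higher at an unadjusted p under 0.05, about the 7.47% or under the 9.02% of all genes, median -0.02). The 17 genes of the MYC network held 1, MYC itself, and had a median of -0.07.

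Transcript length moved with the direction of change. The median transcript of the 77 genes that rose was 1053 bases long, against 1800 bases in the 52 that fell and 1799 bases over all genes tested. From the shortest to the longest quartile of transcripts the median log2 change was 0.02, 0.01, -0.01 and -0.03. Ribosomal protein transcripts had a median length of 682 bases and those of oxidative phosphorylation 702 bases. With a smooth trend of length and GC content removed from each library, a step chosen after seeing the data, 70 of the 77 rises and 45 of the 52 falls were also called, and the medians of those lists were 0.12 and 0.08. The part of length in these changes was not tested otherwise.

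**Figure D3:**
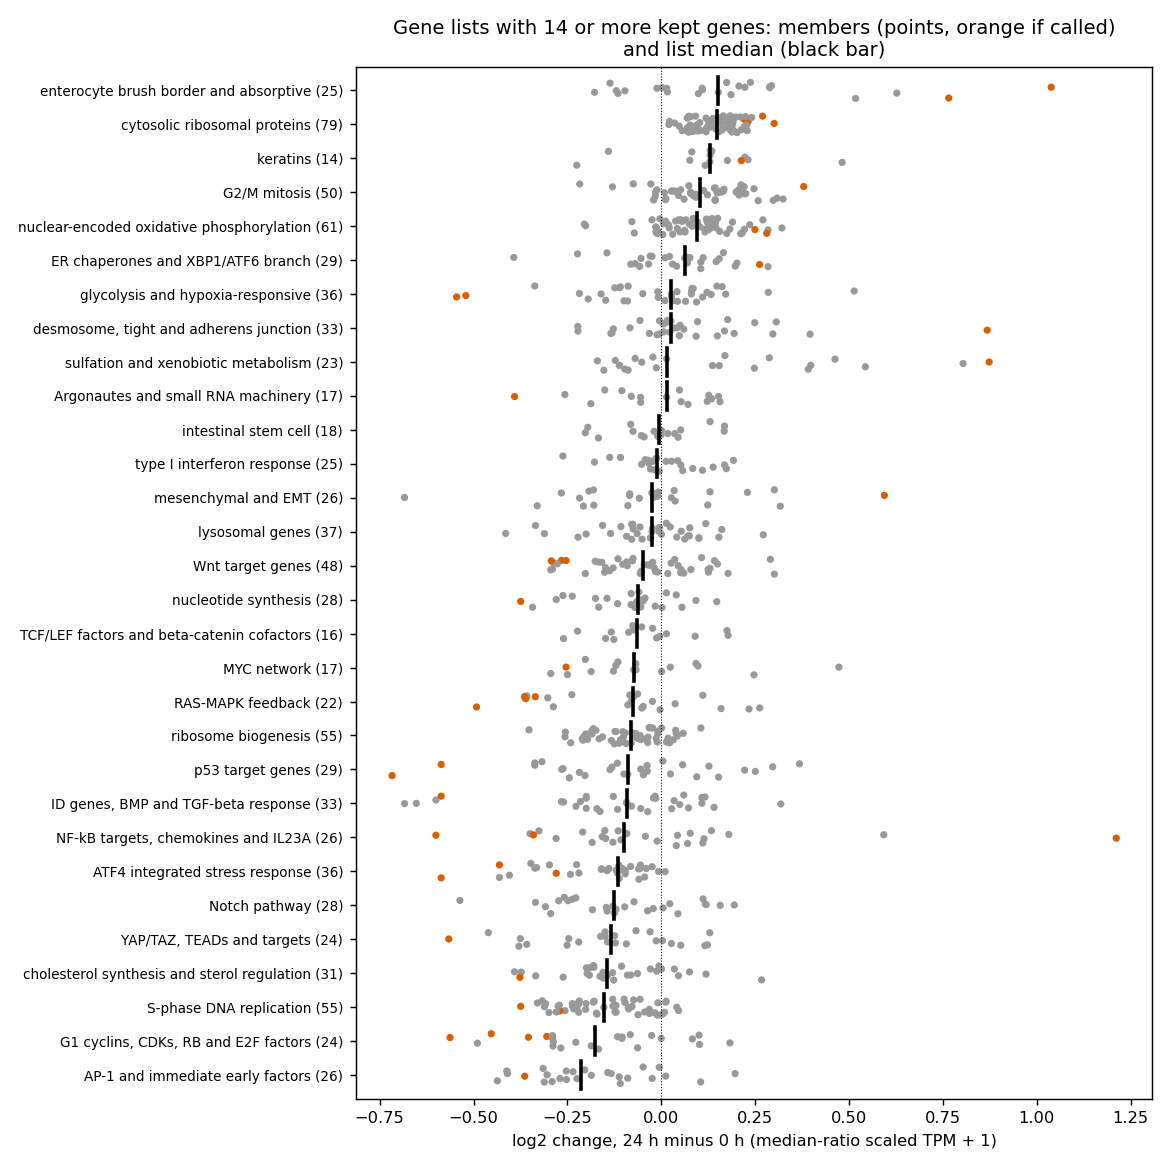
Log2 change at 24 h (x axis) of each kept gene in the lists with 14 or more kept genes, with the list median as a black bar and called genes in orange. Ribosomal proteins form a narrow band right of 0 around 0.15, immediate early, G1 and S-phase genes lie to the left with medians of -0.21 to -0.15, and most members of every list did not pass.

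The 48 h and 72 h libraries show where the called genes went next. The interval from 48 h to 72 h shares no library with the 24 h comparison, although the spread was estimated jointly. Over all genes, 20.5% were higher and 19.4% lower at 72 h than at 48 h. Of the 77 genes that rose at 24 h, 25 rose again in that interval (32.5%) and 24 fell (31.2%). Of the 52 that fell at 24 h, 16 fell again (30.8%) and 14 rose (26.9%). All 4 shares lay above the background of their direction, and the genes that rose at 24 h were about as often higher as lower later. Called genes were chosen partly for a small shared spread, which also eases a call in the later interval. Their median level in the higher group was 44.24 TPM, against 13.48 TPM over all genes tested. The excess over background therefore cannot be read as a property of the 24 h response. Across all 11894 genes, which are not independent replicates, the changes in the 2 intervals had a correlation of 0.03.

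Some genes moved in the same direction in both intervals. HOXB8, a homeobox factor, had 5.77 and 5.56 TPM at 0 h, 7.82 and 7.14 TPM at 24 h, 16.1 and 15.36 TPM at 48 h and 42.2 and 32.79 TPM at 72 h. YES1, a SRC-family kinase, had 50.88 and 47.83, then 34.4 and 35.59, then 24.51 and 22.34, then 6.39 and 4.84 TPM at the same times. HOXB8 thus went up and YES1 down at every step, with log2 changes at 24 h of 0.43 ± 0.07 (adjusted p = 0.0319) and -0.39 ± 0.07 (adjusted p = 0.0426). LMNTD1, a lamin-tail domain protein, also went up at every step (2.65 and 2.91 TPM at 0 h, 4.22 and 4.12 TPM at 24 h, 36.31 and 28.18 TPM at 72 h). SLC39A14, a zinc importer, had 62.07 and 61.63 TPM at 0 h, 43.59 and 45.86 TPM at 24 h and 19.22 and 14.51 TPM at 72 h. PDGFA, a growth factor, had 156.51 and 148.79 TPM at 0 h and 110.55 and 111.22 TPM at 24 h, stood slightly above that at 48 h (120.7 and 122.41 TPM), and was lower again at 72 h (68.86 and 52.45 TPM). Others turned. ASS1, argininosuccinate synthase, had 401.27 and 393.15 TPM at 0 h, 442.28 and 425.96 TPM at 24 h (log2 change 0.22 ± 0.04, adjusted p = 0.0366) and 167.14 and 128.56 TPM at 72 h. DKK4, a secreted Wnt antagonist, had 44.81 and 45.31 TPM, then 59.6 and 62.9 TPM (log2 change 0.53 ± 0.08, adjusted p = 0.0217), and 37.14 and 23.7 TPM at 72 h. EREG turned the other way and stood at 48.27 and 38.27 TPM at 72 h, as did SEMA3A, a guidance cue (115.5 and 117.53 TPM, then 93.09 and 90.74 TPM, and 183.18 and 133.22 TPM at 72 h). SEC11C, a signal peptidase subunit, rose at 24 h (log2 change 0.29 ± 0.05) and stood at 54.56 and 41.3 TPM at 72 h against 71.85 and 75.09 TPM at 0 h.

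**Figure D4:**
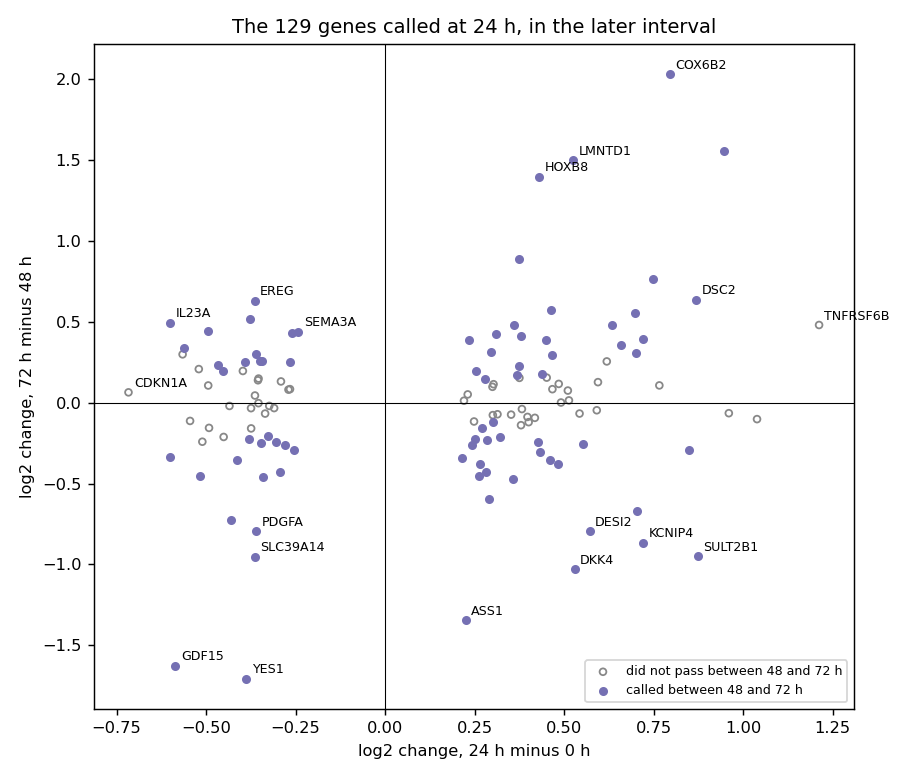
Log2 change from 48 h to 72 h (y axis) against log2 change at 24 h (x axis) for the 129 called genes, filled where the later change was called too. Points fill all 4 quadrants, with 25 and 24 of the genes that rose at 24 h called up and down later.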

How the data were processed

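Total RNA of SW480 cells was depleted of ribosomal RNA and sequenced, per the labels' protocols. The authors deposited 1 table of TPM per gene and library. The submitters' processing notes name RSEM, STAR, Trimmomatic, FastQC, SAMtools and Picard and the build hg19. Versions of these tools, the gene annotation and the strandedness: not given in the sources used here. Per the labels, the treatment covered more replicates than the 2 libraries per group used here.

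From the deposited TPM, each library was scaled by the median of its ratios to an average profile, log2(TPM + 1) was taken, and genes reaching a TPM of 1 in 2 libraries or more were fitted with limma 3.58.1 (R 4.3.3; group means over all 8 libraries, mean-variance trend, two-sided, Benjamini-Hochberg, adjusted p under 0.05). The fit was tested on simulated data. A change on this scale understates that of low genes. The members, gene lists, motifs and the scaling were chosen with earlier results of these data known. Named genes were the TCF/LEF family, CTNNB1 and 5 Wnt targets. Added were the 15 largest called rises and falls without overlap and with at least 5 TPM on average in the higher group. From each list, called members and up to 4 others by smallest p were named. Genes called at 24 h and again from 48 h to 72 h were named by smallest p in that interval, each way. Genes called only as deposited were named by the largest gap between the 2 libraries of a group. Of the listed symbols, 18409 matched the reference names. Positions and lengths are of GENCODE 29 on GRCh38, not the build of the files, and promoter windows of RefSeq. Alternatives were other pseudocounts, filters, scalings, variance models, thresholds, a replicate block, leaving out libraries, and, added after seeing the data, removing a length and GC trend and leaving out both 72 h libraries. The result of 1 gene is not reported here.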

Additional observations from a re-analysis of the deposited data

Results flagged for a closer look

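Among the 15 largest rises and 15 largest falls, 8 genes had a change from 24 h to 48 h that was opposite to that from 0 h to 24 h and called by limma (adjusted p under 0.05). The 24 h libraries enter both changes, so an opposite sign is favoured by how the genes were chosen. From 24 h to 48 h the log2 change was 0.75 for CDKN1A (adjusted p = 0.000316), 0.61 for SLC2A3 (8.85e-05), 0.64 for IL23A (0.00218), 0.53 for DUSP6 (0.000636) and 0.32 for KLK6 (0.00621). It was -0.59 for ITPKA (adjusted p = 0.00583), -0.47 for SULT2B1 (0.0425) and -0.41 for COX6B2 (0.0386). Over all genes called at 24 h, 15 of the 52 that fell and 5 of the 77 that rose did so. Groups of 2 libraries are too small for a test of single libraries standing apart.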

How the results depend on the processing

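The 129 calls (77 higher, 52 lower) moved by over 1.5 times under these settings. They were 55 (25, 30) on TPM as deposited, 217 (125, 92) with a minimum TPM of 5, 15 (9, 6) with no filter, 20 (15, 5) with no mean-variance trend, and 321 (211, 110) without both 72 h libraries, an alternative chosen after seeing the data. With each library set to the same sum 113 genes were lower. At an adjusted p under 0.01 there were 11 calls (7, 4), under 0.10 there were 441 (267, 174), and with a 1.5-fold minimum 24 (20, 4). Leaving out 1 library at a time gave 4 to 296 calls, 3 to 193 higher and 1 to 103 lower. All 129 were among the 292 and 296 calls without a 72 h library. Of the calls at 24 h, 79 were called again between 48 h and 72 h; this was 20 as deposited, 132 with a minimum TPM of 5, 10 with no filter, 13 with no trend, 6 and 259 at adjusted p under 0.01 and 0.10, 16 with the 1.5-fold minimum and 2 to 159 with 1 library left out.

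TCF7L2 did not pass under any setting. Its value in log2 was -0.35 as deposited and -0.34 to -0.18 with 1 library left out. CTNNB1 was 0.0034 with the length and GC trend removed and -0.0276 to 0.0197 with 1 library left out, AXIN2 -0.0460 to 0.0067, TCF7 -0.2053 to 0.0553 and LEF1 -0.0408 to 0.3954. Among the genes called only as deposited, MBD5 ran from -2.35 to 0.21, SMIM11A from -0.29 to 1.81 and SMIM11B from -2.46 to 0.59. No other gene compared across these settings changed sign.

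Labels number the replicates without saying that a number is shared, and deviations from the group means correlated between same-numbered libraries at -0.09 to 0.11, so the numbers were not taken as pairs. With the replicate number as a block, the replicate block fit called 91 genes (58, 33), 88 of them shared. TPM holds no depth, so counting error at low levels is unknown, and 2 libraries a group limit every comparison.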

Other observations

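Some genes of the actin cytoskeleton that belong to no list above, chosen after their values were seen, were also called by limma at 24 h, in both directions. FLNA, the actin crosslinker filamin A, had 298.63 and 290.52 TPM at 0 h and 223.92 and 208.35 TPM at 24 h (log2 change -0.35 ± 0.05, adjusted p = 0.0154). ACTN4, an alpha-actinin, had 617.49 and 606.74 TPM and then 478.31 and 436.38 TPM (-0.32 ± 0.05, adjusted p = 0.0155). MYH9, a nonmuscle myosin heavy chain, had 85.99 and 85.81 TPM and then 65.19 and 60.93 TPM (-0.34 ± 0.05, adjusted p = 0.0155). These 3 structural genes were lower in both libraries. The GTPases RHOA (0.32 ± 0.04, adjusted p = 0.0146) and RHOC (0.36 ± 0.07, adjusted p = 0.0399) and MSN, the membrane linker moesin (32.71 and 33.07 TPM, then 42.28 and 43.15 TPM, 0.46 ± 0.05, adjusted p = 0.00832), were higher. ACTB, which encodes beta-actin, did not pass (-0.21 ± 0.05, adjusted p = 0.0664).

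The genes below were called only on TPM as deposited. They were picked for the largest gaps between 2 libraries of a group, so those gaps do not describe the other such calls. MBD5 had 32.52 and 4.68 TPM at 0 h, and SMIM11A and SMIM11B, near-identical copies, had 23.37 and 4.61 TPM and 2.11 and 24.33 TPM at 24 h. PIGY had 7.68 and 0 TPM at 24 h, and CNBD2 had 6.3 and 1.17 TPM at 0 h.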
